A study of Bos taurus with 6 samples.

Results

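Genes of cholesterol synthesis, transport and sterol control were followed by RNA-seq across 6 libraries of cattle blastocysts, the embryo stage that first has an outer trophectoderm and an inner cell mass. They were taken by symbol from a list of 35 genes, of which 32 have a row among the 12826 genes of the count table. All 32 passed the filter on low counts. TM7SF2, STARD4 and ERG28 have no row under these symbols. ERG28, which holds the late sterol enzymes together, has a row under an older symbol that the rule does not take; that row was at 17.1 ± 1.01 CPM (counts scaled to a common library total; SD, n = 3) in control and 19.1 ± 3.14 CPM (SD, n = 3) in treated libraries.

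Embryos of both groups were produced in vitro and were blastocysts of day 7. The BHB group (3 libraries) received beta-hydroxybutyrate, the main circulating ketone body, and the control group (3 libraries) did not. Each library came from a pool of whole embryos, so fewer cells of a type and less RNA per cell cannot be told apart. The labels name neither a dose, nor a length of exposure, nor the size of a pool. Nothing in them says that the pools were independent, so p-values cover only the spread among these pools, which may be technical. The libraries held 6440732 to 8176648 counts.

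Animal cells build cholesterol from acetyl-CoA through mevalonate, squalene and lanosterol, and the early intermediates acetoacetyl-CoA and HMG-CoA also belong to ketone body metabolism. When sterols in the endoplasmic reticulum run low, SCAP carries the factor SREBP2 to the Golgi, where proteases release its active part, which raises transcription of nearly every enzyme of the pathway. When sterols are ample, INSIG proteins hold SCAP back, and the oxysterol receptors called LXR turn on efflux. A blastocyst uses cholesterol for new membrane and, in trophoblast, for steroid hormones.

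The libraries fall into 3 pairs of 1 control and 1 BHB library (control 1 with BHB 1, control 2 with BHB 2, control 3 with BHB 3). The labels do not name these pairs. They were read from the authors' deposited table, whose p-values were matched in 99.98% of genes by a model with this pairing and in at most 0.398% of genes by any other pairing of control with BHB libraries. What the libraries of a pair share is not stated in the labels.

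Sterol genes varied more between pairs than between treatments. Pair (2 degrees of freedom) took a median of 67.4% of a member's variance and treatment (1 degree of freedom) 9.11%, against 53.5% and 10.8% over all tested genes. All 18 tested enzymes from ACAT2 to DHCR7 had their highest level in control library 1, a library that was the highest in 20.6% of all tested genes. With treatment in the model, pairs 2 and 3 were both below pair 1 in 18 of 18 enzymes and in 23 of 32 members, against 35.2% of all tested genes. The median log2 difference of the 18 enzymes was -0.52 for pair 2 minus pair 1 and -0.59 for pair 3 minus pair 1, while that of pair 3 minus pair 2 was 0.03. Over all tested genes these medians were -0.010, 0.0078 and 0.00075. The BHB library of pair 1 was the highest of the 3 BHB libraries in 15 of the 18 enzymes. The exceptions were SQLE, NSDHL and LBR. How often this order held over all tested genes was not counted. Among the 14 other members, BHB library 1 was the highest of the 3 in 5.

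**Figure D1:**
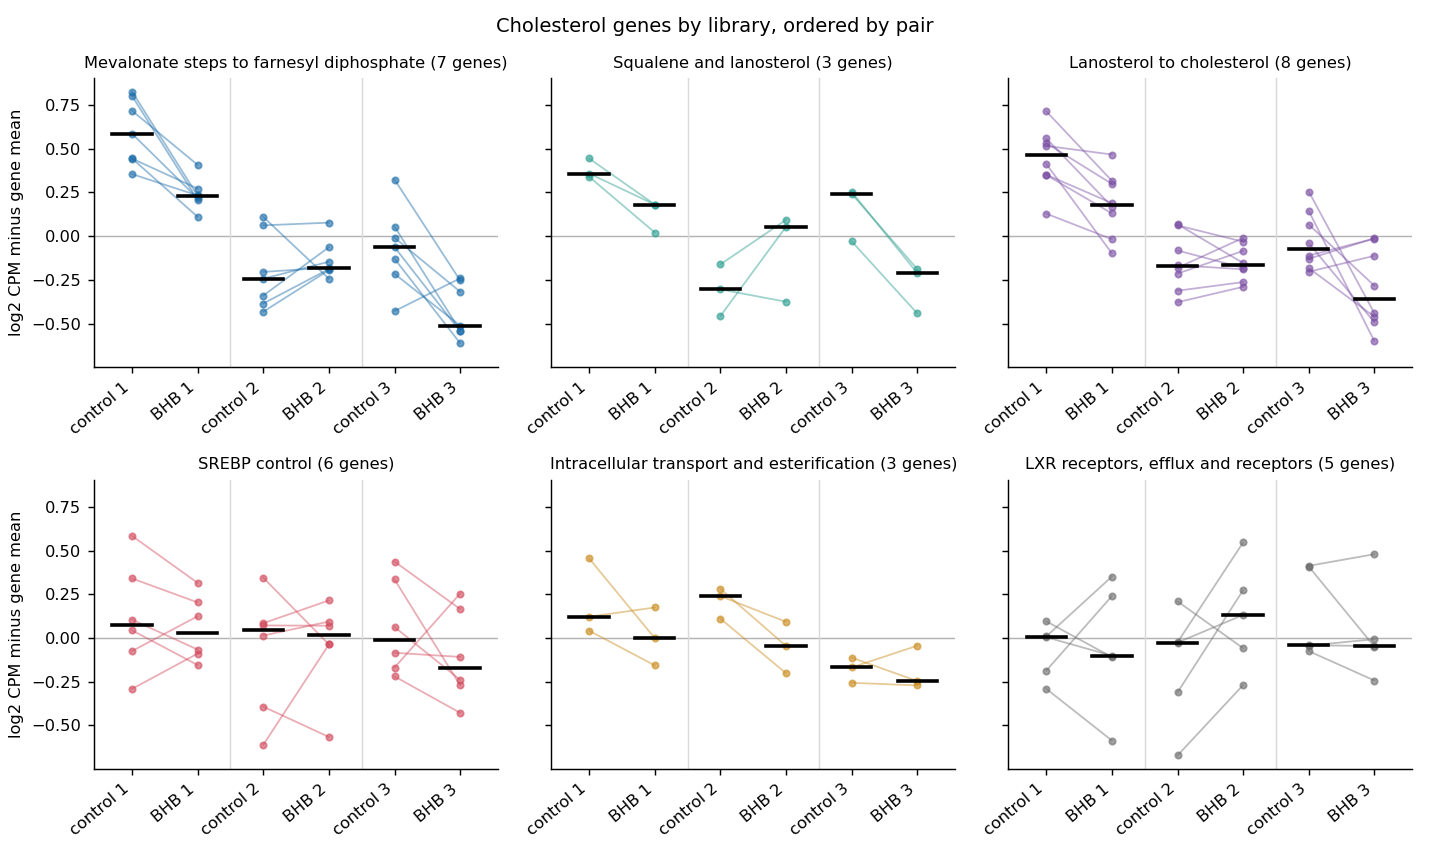
Each point is 1 gene in 1 library, as log2 CPM (y axis) minus that gene's mean over the 6 libraries, with libraries on the x axis ordered by pair, lines joining the libraries of a pair and black bars at the median of each role group. The medians of the 7 mevalonate genes were 0.59 in control 1 and 0.23 in BHB 1 and below 0 in the other 4 libraries, whereas those of the LXR group stayed between -0.10 and 0.13.

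Levels in CPM are compared between libraries and not between genes, because transcript lengths were not used here. ACAT2, the cytosolic thiolase that opens the pathway by joining acetyl-CoA units, was at 242, 128 and 135 CPM in control libraries 1 to 3 and at 195, 130 and 96.1 CPM in BHB libraries 1 to 3. Both libraries of pair 1 were thus above the other 4. HMGCS1, the cytosolic HMG-CoA synthase, was at 321, 138 and 188 CPM in controls and 212, 159 and 124 CPM with BHB. Here too the libraries of pair 1 were the 2 highest.

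CYP51A1, the demethylase that acts on lanosterol, was at 320.4, 157 and 216 CPM in controls and 243, 163 and 129 CPM with BHB. EBP, a sterol isomerase of the late pathway, was at 153, 109 and 91.2 CPM in controls and 117, 93.1 and 75.1 CPM with BHB. In both genes pair 1 held the 2 highest levels, and in EBP the order of pairs 1, 2 and 3 was the same in either group. These 4 genes differed between pairs by the quasi-likelihood F test of edgeR, with p-values adjusted over all genes after Benjamini and Hochberg. It called 4 of 32 members and 4.12% of all tested genes.

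ACAT2 had the smallest adjusted p of the 32 members in the edgeR test between pairs (0.0141), with log2 differences of -0.75 (SE 0.15) for pair 2 minus pair 1 and -0.93 (SE 0.15) for pair 3 minus pair 1. The other 3 were near the threshold, with adjusted p = 0.0423 for CYP51A1, 0.0450 for EBP and 0.0499 for HMGCS1 in the same edgeR test. HMGCS1 differed by -0.80 (SE 0.19) and -0.77 (SE 0.19) on the log2 scale, CYP51A1 by -0.79 (SE 0.18) and -0.73 (SE 0.18), and EBP by -0.41 (SE 0.14) and -0.69 (SE 0.14). Scaling by library size alone left 1 of the 4 calls, ACAT2, and called 2.95% of all tested genes. Without pair 1 no member was called, where 63 of all genes (0.497%) were.

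Another 15 members reached an unadjusted p under 0.05 between pairs without passing the adjusted edgeR test. With the 4 called, 19 of 32 members had such a p, as did 2627 of the 12732 tested genes. INSIG1 came nearest (adjusted p = 0.0516), then FDPS, which makes farnesyl diphosphate (0.0704), and DHCR7, which reduces dehydrocholesterol to cholesterol (0.0780). FDPS, given by library here after its values were seen, was at 183, 82.6 and 100.2 CPM in controls and 121, 100.1 and 71.6 CPM with BHB. Its control library of pair 1 stood well above the rest, and its BHB library 1 was the second highest.

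Not every enzyme followed this order to the same extent. LBR, a sterol reductase that is also a protein of the nuclear envelope, differed by -0.04 (SE 0.15) and -0.13 (SE 0.15) on the log2 scale in pairs 2 and 3 against pair 1, and its highest level was 1.2 times its lowest. SQLE, the squalene epoxidase, was at 139, 79.8 and 131 CPM in controls and 111, 114 and 94.7 CPM with BHB, so control library 2 was the lowest and the pairs overlapped. For NSDHL, which removes sterol methyl groups, control library 1 was at 196 CPM and the other 5 libraries lay between 130 and 146 CPM. HSD17B7, a sterol ketone reductase, had the largest share of its variance between pairs among the members (98.8%), but at 6.63 to 12.6 CPM its adjusted p was 0.191 by edgeR.

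**Figure D2:**
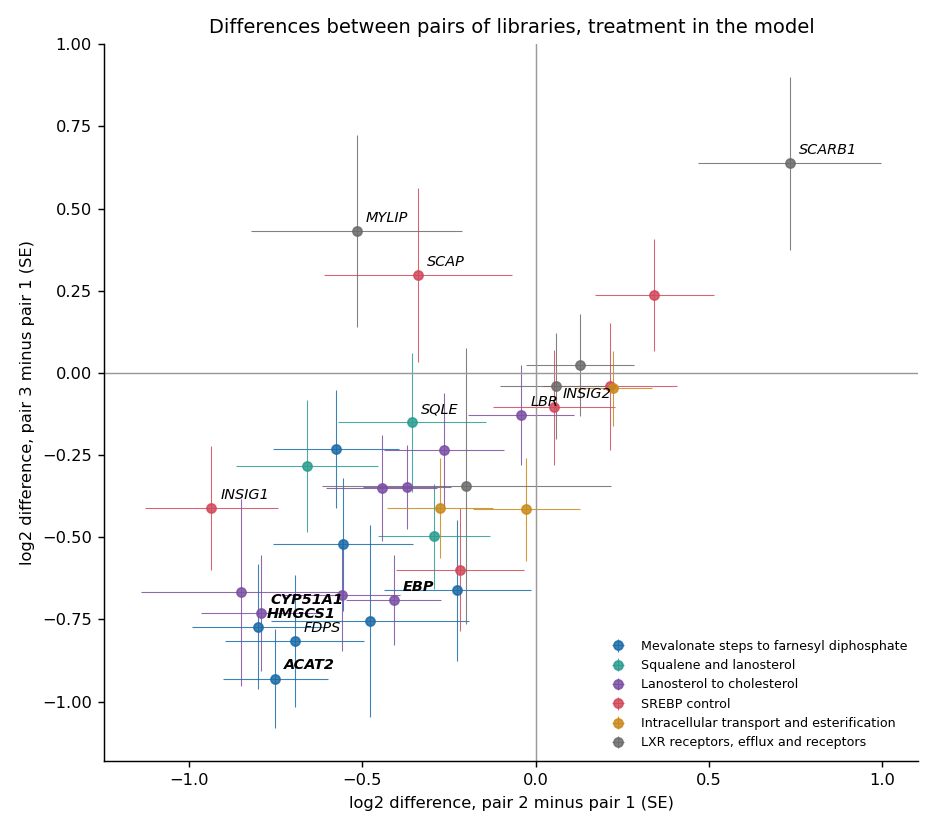
Each point is 1 of the 32 genes, with the log2 difference of pair 2 from pair 1 on the x axis and of pair 3 from pair 1 on the y axis, error bars of 1 SE and colours for role groups; bold names passed edgeR's test between pairs. All 18 synthesis enzymes lie in the lower left part, where both pairs are below pair 1, with ACAT2 lowest on the y axis, while SCARB1 lies on the opposite side.

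Among the genes of SREBP control, the paralogs INSIG1 and INSIG2 are set side by side because INSIG1 is itself a known target of SREBP, so that its product feeds back on the pathway. INSIG1 was at 51.7, 26.1 and 43.4 CPM in control libraries 1 to 3 and 42.8, 23.1 and 28.5 CPM in BHB libraries 1 to 3. Pair 2 was the lowest in either group. INSIG2 was at 43.4, 42.4 and 42.2 CPM in controls and 38.5, 42.4 and 34.1 CPM with BHB, with almost no spread among controls. The log2 difference of pair 2 minus pair 1 was -0.94 (SE 0.19) for INSIG1 and 0.05 (SE 0.17) for INSIG2. The difference between these paralogs was not tested.

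SREBF2, which encodes SREBP2, was at 27.4 to 40.5 CPM in controls and 23.6 to 36.8 CPM with BHB, and pair 3 was the lowest in both groups (log2 difference -0.60, SE 0.19, from pair 1; edgeR adjusted p between pairs 0.188). SCAP, the escort protein, was at 9.68 to 20.3 CPM in controls and 14.5 to 16.8 CPM with BHB. MBTPS1 and MBTPS2, the Golgi proteases that cut SREBPs, differed by 0.34 (SE 0.17) and 0.22 (SE 0.19) on the log2 scale in pair 2 against pair 1 and by 0.24 (SE 0.17) and -0.04 (SE 0.19) in pair 3. Neither protease passed the test between pairs.

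Transport and efflux genes showed other orders of the libraries. NPC1 and NPC2, which export cholesterol from late endosomes and lysosomes, were lower in pair 3 than in pair 1 by -0.41 (SE 0.15) and -0.42 (SE 0.16) on the log2 scale. SOAT1, which esterifies cholesterol for storage, was at 2850.2, 3270.3 and 2463 CPM in controls and 2484, 2953 and 2686 CPM with BHB, with the highest level in pair 2 in each group. SCARB1, the receptor for high-density lipoprotein, was higher in pairs 2 and 3 than in pair 1 by 0.73 (SE 0.26) and 0.64 (SE 0.26). None of these 4 genes passed the edgeR test between pairs (adjusted p = 0.226 to 0.30). The LXR genes NR1H2 and NR1H3 and the exporter gene ABCA1 had adjusted p = 0.829 to 0.904.

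BHB and control libraries were then compared to ask whether sterol genes differ with the ketone body. The estimate was below 0 in 27 of 32 members, against 50.9% of all tested genes, and the median log2 fold change of BHB over control was -0.13, against -0.0050 over all tested genes. These shifts were small, and no member passed. By edgeR's quasi-likelihood F test, 0 of 32 members were called and 0% of all tested genes, and 0 of 32 had an unadjusted p under 0.05, where 2.73% of all tested genes did. DESeq2's Wald test also called 0 members, and only 6 of 12823 genes in all. With limma-voom 0 members and 0 of 12732 genes were called. In no member did the 3 BHB libraries all lie below the 3 controls, as they did in 3.78% of all tested genes, and in none did they all lie above, as in 4.06% of all tested genes.

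Leaving out control library 1 moved the median of the 32 members to 0.019 and left 14 of 32 below 0; leaving out BHB library 3 gave -0.06 and 21 of 32. Without any 1 of the other 4 libraries the median was -0.17 to -0.23. A fit that drops 1 library keeps its partner, so it mixes pair with treatment. Dropping both libraries of a pair, with the pair as a term, gave medians of -0.11 without pair 1, -0.24 without pair 2 and -0.10 without pair 3, with 22, 27 and 24 of 32 members below 0.

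**Figure D3:**
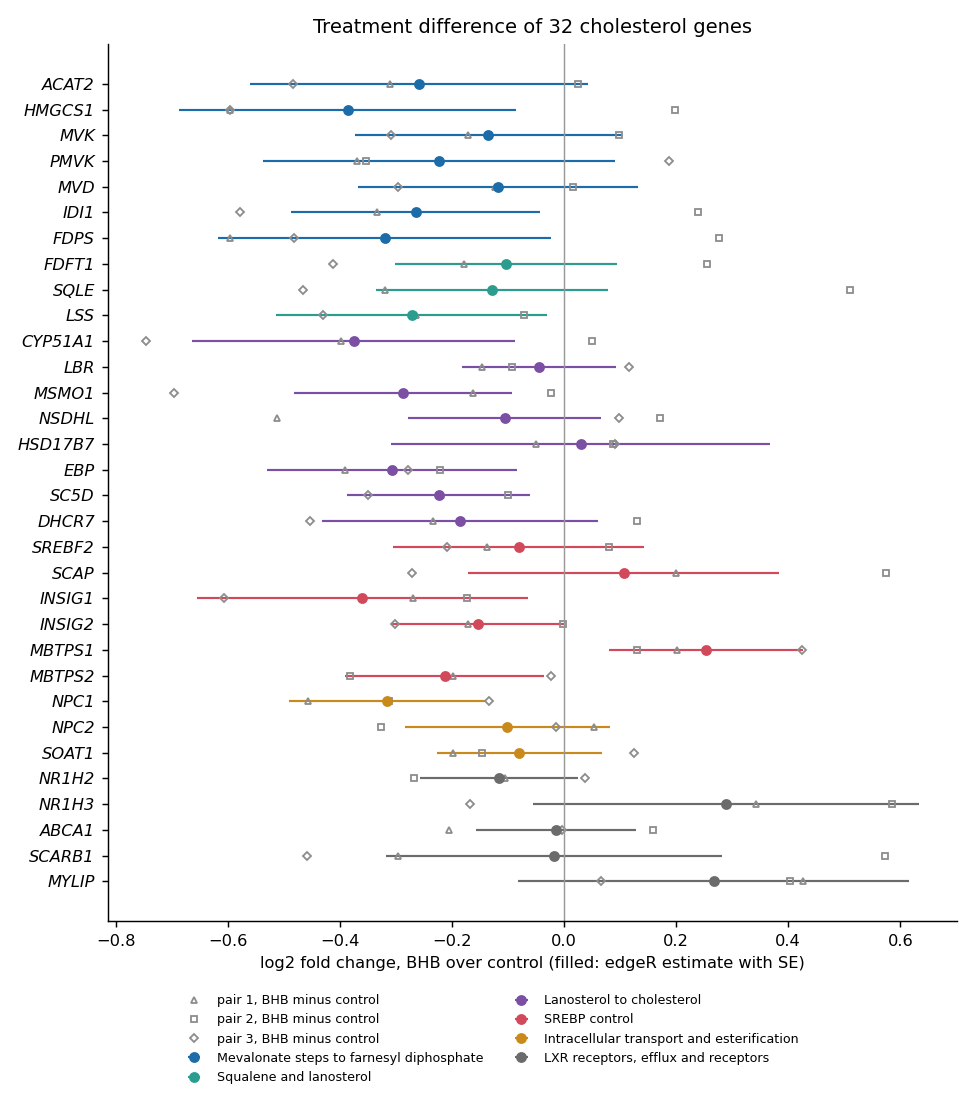
The x axis is the log2 fold change of BHB over control for each of the 32 genes (rows, grouped by role); filled points with bars are the edgeR estimate and its SE, and open grey marks are the differences within pairs 1, 2 and 3. Most filled points lie to the left of 0 with bars that reach near or across it, and the squares of pair 2 lie to the right of 0 in 19 of 32 genes.

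Within pairs, the log2 difference of BHB minus control had a median over the 32 members of -0.20 in pair 1, 0.06 in pair 2 and -0.29 in pair 3, and was below 0 in 27, 13 and 24 of them. For all tested genes the medians were 0.0047, 0.0045 and -0.0085, with 6313, 6306 and 6523 of 12732 genes below 0. For the 18 enzymes of synthesis the medians were -0.29, 0.07 and -0.42. Pairs 1 and 3 thus showed lower enzyme levels with BHB, and pair 2 did not. Each of these values rests on 1 library a side, and the differences between pairs in the response to BHB cannot be tested here. BHB was lower in 3 of 3 pairs for 8 members (25.0%, against 15.7% of all tested genes): LSS, MSMO1, EBP, SC5D, INSIG1, INSIG2, MBTPS2 and NPC1. On the other side 2 of 32 members, MBTPS1 and MYLIP, were higher in 3 of 3 pairs, against 14.5% of all tested genes.

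With the pair as a block, edgeR still called 0 members (smallest adjusted p = 0.544, for EBP). At an unadjusted p under 0.05 it had 5 members, all lower with BHB, and 4.21% of all tested genes on the lower side. They were CYP51A1, MSMO1, EBP, INSIG1 and NPC1. Blocked DESeq2 called 35 genes in all and 0 members.

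In the mevalonate steps, 7 of 7 estimates were below 0 and 0 passed. HMGCS1 was at 216 ± 94.5 CPM (SD, n = 3) in control and 165 ± 44.4 CPM (SD, n = 3) in BHB libraries, a log2 fold change of -0.39 (SE 0.30). IDI1, which isomerises isopentenyl diphosphate, was at 226, 123 and 208 CPM in controls and 179, 145 and 139 CPM with BHB (log2 fold change -0.26, SE 0.22). Its BHB libraries lay within the range of its controls. FDPS was at -0.32 (SE 0.30), ACAT2 at -0.26 (SE 0.30), the kinase genes MVK and PMVK at -0.13 (SE 0.24) and -0.22 (SE 0.31), and the decarboxylase gene MVD at -0.12 (SE 0.25).

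The steps through squalene to lanosterol had 3 of 3 estimates below 0. LSS, the cyclase that forms lanosterol, was at 32.7, 19.4 and 28.4 CPM in controls and 27.2, 18.4 and 21.01 CPM with BHB (log2 fold change -0.27, SE 0.24). SQLE was at -0.13 (SE 0.21) and FDFT1, the squalene synthase gene, at -0.10 (SE 0.20). In each of these genes the groups overlapped.

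From lanosterol to cholesterol 7 of 8 estimates were below 0. MSMO1, a methylsterol oxidase, was at 517, 361 and 483 CPM in controls and 462, 355 and 298 CPM with BHB (log2 fold change -0.29, SE 0.19), with its widest gap within pair 3 (-0.70). SC5D, a sterol desaturase, was at 272, 201 and 223 CPM in controls and 233, 188 and 175 CPM with BHB (-0.22, SE 0.16). CYP51A1 was at -0.38 (SE 0.29), EBP at -0.31 (SE 0.22), DHCR7 at -0.19 (SE 0.25), NSDHL at -0.11 (SE 0.17) and LBR at -0.04 (SE 0.14). HSD17B7 had the 1 positive estimate (0.03, SE 0.34).

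SREBP control genes had 4 of 6 estimates below 0. MBTPS1 was at 35.8, 46.5 and 39.0 CPM in controls and 41.2, 51.0 and 52.4 CPM with BHB (log2 fold change 0.25, SE 0.17), and the groups overlapped through control library 2. INSIG1 was at 40.4 ± 13.1 CPM (SD, n = 3) in control and 31.5 ± 10.2 CPM (SD, n = 3) in BHB libraries (-0.36, SE 0.30). INSIG2 was at -0.15 (SE 0.15), MBTPS2 at -0.21 (SE 0.18), SREBF2 at -0.08 (SE 0.22) and SCAP at 0.11 (SE 0.28).

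**Figure D4:**
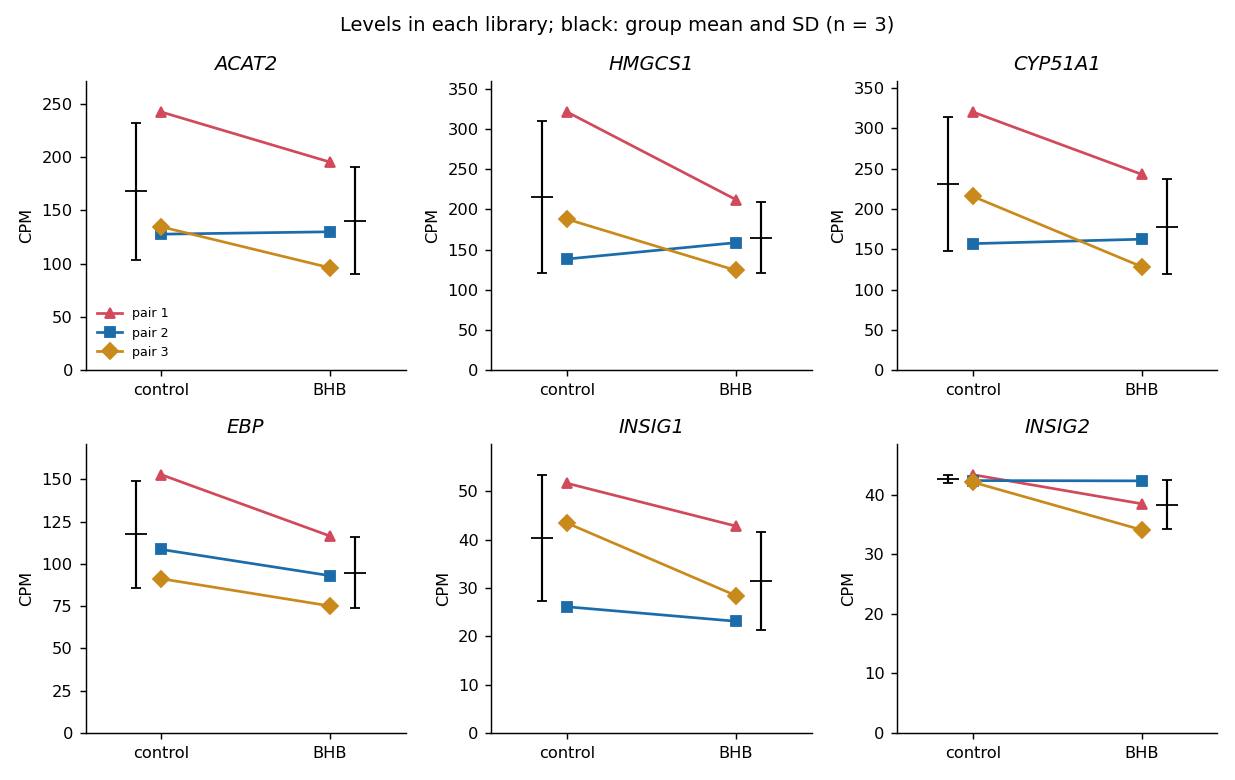
CPM (y axis, from 0) of 6 genes in the control and BHB libraries (x axis), with lines joining the libraries of a pair and black bars for the group mean and SD (n = 3). Pair 1 is the highest in ACAT2, HMGCS1, CYP51A1, EBP and INSIG1 in both groups, the SD bars of the groups overlap in these 5 genes, and INSIG2 has a control SD of 0.66 CPM.

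Outside synthesis, NPC1 had the smallest unadjusted p of all 32 members (0.103). It was at 96.0, 75.6 and 64.7 CPM in controls and 69.9, 60.8 and 58.9 CPM with BHB (log2 fold change -0.32, SE 0.17), and BHB library 1 alone reached into the range of the controls. NPC2 was at 84.0, 93.9 and 64.6 CPM in controls and 87.2, 74.8 and 63.9 CPM with BHB (-0.10, SE 0.18), and SOAT1 was at -0.08 (SE 0.15). NR1H3, the LXR-alpha gene, was at 3.87, 3.05 and 3.64 CPM in controls and 4.98, 4.71 and 3.21 CPM with BHB (0.29, SE 0.34), and NR1H2, the LXR-beta gene, at 62.6, 72.3 and 60.6 CPM and 58.2, 60.0 and 62.2 CPM (-0.12, SE 0.14). ABCA1, which hands cholesterol to apolipoproteins, was at -0.015 (SE 0.14) and SCARB1 at -0.018 (SE 0.30). MYLIP, an LXR target whose product marks lipoprotein receptors for degradation, was at 0.27 (SE 0.35).

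In the authors' deposited table, adjusted p-values covered all its genes. Of the 32 members, 6 had an adjusted p under 0.05 in the authors' deposited table, against 5.04% of its genes: ACAT2 (1.77e-05), CYP51A1 (0.000333), HMGCS1 (0.000616), EBP (0.00618), FDPS (0.00721) and INSIG1 (0.0218). The refit that gave the same p-values tests pair and treatment together against a model with neither. A small p in the authors' deposited table is therefore no test of BHB alone. For the same 6 genes, edgeR's adjusted p with the pair as a block was 0.636, 0.564, 0.620, 0.544, 0.71 and 0.601 for treatment. The test between pairs called 4 of the 6 by edgeR and all 6 by DESeq2's likelihood ratio test. Of all genes, edgeR called 4.12% and DESeq2 662 of 12826 (5.48% of the genes to which DESeq2 gave an adjusted p). The 6 were picked by a test on the same counts that includes pair, so these calls are no separate evidence.

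Genes near the pathway gave further values between pairs. Of 16 sterol transport and storage genes outside the list above, 14 were tested and 2 differed between pairs by edgeR. Over all tested genes 4.12% did, a share that also stands beside the lists that follow. TMEM97, a sterol-responsive membrane protein that binds NPC1, was at 304, 164 and 172 CPM in controls and 245, 184 and 166 CPM with BHB, with both libraries of pair 1 the highest (adjusted p = 0.0327). GRAMD1C, of a family that moves sterol from the plasma membrane, was at 79.7, 126 and 103 CPM in controls and 52.1, 115 and 87.0 CPM with BHB, with pair 1 the lowest in each group (adjusted p = 0.0327). RNF145, a ubiquitin ligase of the endoplasmic reticulum, was the 1 of 14 degradation and trafficking partners of SREBP control that differed. It was at 34.1, 83.7 and 89.0 CPM in controls and 38.3, 67.2 and 53.1 CPM with BHB, and pair 1 was the lowest in each group (adjusted p = 0.0388).

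SREBF1, which drives fatty acid synthesis, and 11 of its targets were below pair 1 in 12 of 12 genes in pair 2 and in 10 of 12 in pair 3, against 51.1% and 49.1% of all tested genes. The desaturase genes SCD and FADS1 differed between pairs by edgeR. SCD was at 521, 190 and 289 CPM in controls and 349, 195 and 241 CPM with BHB (adjusted p = 0.00869), and FADS1 at 331, 193 and 213 CPM in controls and 388, 163 and 146 CPM with BHB (adjusted p = 0.0111). Pair 1 was the highest in both. The isoprenoid branches that use farnesyl diphosphate for other products had 0 of 16 genes called between pairs, against 4.12% of all tested genes. With so few genes, 0 called is near that share. Their median log2 difference from pair 1 was 0.010 in pair 2 and 0.0071 in pair 3. Those of all tested genes were -0.010 and 0.0078.

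Between BHB and control, 0 genes of these 4 lists passed edgeR's test. The 3 with the smallest unadjusted p in each list follow. In transport and storage they were CAV1, the caveolin gene (log2 fold change -1.26, SE 0.33, unadjusted p = 0.0039 and adjusted p = 0.999 by edgeR), OSBPL2 (-0.25, SE 0.20) and SCP2 (-0.19, SE 0.16). CAV1 was at 16.03, 8.35 and 12.8 CPM in controls and 4.72, 6.65 and 4.09 CPM with BHB, so its BHB libraries all lay below its controls. Among the partners of SREBP control they were SPRING1, whose product is needed for maturation of the MBTPS1 protease (0.49, SE 0.23), RNF139 (-0.22, SE 0.19) and RNF145 (-0.38, SE 0.34). They were FNTB (0.35, SE 0.19), DOLK (-0.23, SE 0.16) and PGGT1B (-0.20, SE 0.18) in the isoprenoid list, and FADS2 (-0.43, SE 0.39), ELOVL5 (-0.16, SE 0.15) and PNPLA3 (0.13, SE 0.13) in that of SREBF1. In SPRING1, FNTB and PNPLA3 the BHB libraries all lay above the controls. Groups stood apart in 3.78% of all tested genes with BHB lower and in 4.06% with BHB higher.

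Cell type markers were measured because the pools may differ in composition. All 7 trophectoderm markers and all 4 of inner cell mass and epiblast had rows, as did 3 of 4 of primitive endoderm. The summed level of the trophectoderm markers, mostly KRT8 and KRT18, was 10473 to 17061 CPM in controls and 8241 to 13373 CPM with BHB, with pair 1 the highest and pair 3 the lowest in each group. Within each pair this sum was lower with BHB, at 13373 against 17061 CPM, 11611 against 15286 CPM and 8241 against 10473 CPM. KRT8 and KRT18 differed between pairs by edgeR (adjusted p = 0.0071 and 0.0169), and 7 of 7 trophectoderm markers were lower in pair 2 than in pair 1 and 5 of 7 in pair 3, against 51.1% and 49.1% of all tested genes. TFAP2C (log2 difference 0.33) and GATA2 (0.02) were the 2 with higher values in pair 3. With BHB the markers did not share a direction. KRT8 and KRT18 were lower within 3 of 3 pairs, CDX2 and TFAP2C were higher within 3 of 3, and GATA2, GATA3 and TFAP2A were mixed. The primitive endoderm marker PDGFRA was at 40.7 and 57.7 CPM in the libraries of pair 1 and 82.1 to 106 CPM in the other 4 (adjusted p = 0.0225). Summed epiblast markers ran from 370.3 to 401 CPM in controls and from 350.1 to 384 CPM with BHB. This sum is mostly POU5F1, and the other markers had opposite directions. NANOG was at 72.4, 60.7 and 73.4 CPM in controls and 30.7, 33.4 and 51.2 CPM with BHB (log2 fold change -0.84, SE 0.21; adjusted p = 0.999 by edgeR, 0.183 by edgeR with the pair as a block and 0.0089 by blocked DESeq2). KLF17 was at 15.4, 17.9 and 22.3 CPM in controls and 34.2, 24.2 and 32.97 CPM with BHB (0.72, SE 0.22; adjusted p = 0.999 by edgeR, 0.371 with the block). In both genes the groups did not overlap. The primitive endoderm gene GATA4 also had all BHB libraries below the controls, at 0.88 to 3.17 CPM over the 6 libraries. The 2 keratin genes thus had their highest levels in pair 1 in each group, and were lower with BHB in each pair, also in pair 2, where the median enzyme was not. The part of cell composition in the results on sterol genes was not tested.

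Of 10 markers of cumulus and granulosa cells, which surround the oocyte and could stay with a pool, 2 had rows, FSHR and CYP19A1, with a summed level of 19.8 to 26.8 CPM in controls and 19.99 to 24.5 CPM with BHB. None of 4 blood cell markers had a row. The overlap of genes on the chromosome was checked as well, since the strand setting of the counts is not given. By the gene positions of ARS-UCD2.0, another gene overlaps 9 members, and for 2 of them that gene was tested. TCP1, the neighbour of ACAT2, differed between pairs by 0.09 (SE 0.11) and -0.18 (SE 0.11) on the log2 scale, against -0.75 and -0.93 for ACAT2, and RMC1, the neighbour of NPC1, had a log2 fold change with BHB of -0.01, against -0.32 for NPC1.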

How the data were processed

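The authors deposited whole-number counts per gene for 6 libraries (3 control, 3 BHB) and a table of their own comparison. That deposited table gives for each gene the mean normalized count (a linear signal), the log2 fold change with its error, the statistic of their test (a score) and the p-value, raw and adjusted. The tools named in the submitters' processing notes are STAR, featureCounts and DESeq2. Their versions, the build, the annotation and the strand setting were not stated there. Libraries, per the labels' protocols, were stranded and made from polyadenylated RNA. The sign of the authors' deposited log2 fold change (control over BHB) is not used for any direction here. Replicate numbers follow the order of deposit.

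The filterByExpr function of edgeR 4.0.16 (R 4.3.3) kept 12732 genes and removed 94. The smallest total count of a gene in the table was 38. CPM and tests used TMM scaling. BHB was tested against control without a covariate by edgeR's quasi-likelihood F test over all genes, Benjamini-Hochberg adjusted at 0.05, and pairs were tested in a model with treatment. Log2 CPM used a prior count of 2. DESeq2 1.42.0, limma 3.58.1, other scalings and filters, a replicate block and fits without single libraries or pairs were alternatives. Deviations from group means correlated over genes at 0.46, 0.32 and 0.33 within the 3 pairs and at -0.30 to -0.0040 between libraries of different pairs. Deviations in a group sum to 0 in each gene, so values above 0 within pairs push the others below 0. The values between different pairs are thus no separate evidence for the pairing. The fits were tested on simulated data.

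The members and lists were chosen with earlier results of these data known. CPM by library is given for members past a test, for those whose groups do not overlap, and for the 2 members of each role group with the smallest p; the 3 genes with the smallest p are named from each other list. Any other gene given by library (FDPS, SC5D, INSIG2, SOAT1, CAV1, NANOG, KLF17, those called between pairs in the other lists) was picked with its values in view. The gene table ARS-UCD2.0 served for synonyms and neighbours, and SPRING1 was matched through an older symbol. No promoter or protein sequence was used here.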

Additional observations from a re-analysis of the deposited data

How the results depend on the processing

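No member was called between BHB and control under any of the 8 alternatives with all libraries or the 9 fits that left out 1 library or pair. Few genes of any kind were called in these settings. The most were 35 of 12826 with all libraries (blocked DESeq2) and 16 of 12719 in the other fits (without pair 2). With so few calls, 0 of 32 members is near the share over all genes. The median log2 fold change of the members stayed below 0 with all libraries (-0.07 with scaling by library size alone) and ran from -0.24 to 0.019 in the fits that left out a library or pair; it turned without control library 1. Scaling by library size alone moved the median of all genes to 0.06 and turned LBR (0.026), ABCA1 (0.052) and SCARB1 (0.032). In edgeR the replicate block changed no call and left the median at -0.13. Of the members, 14 kept their sign in all 9 of those fits and 18 did not, 13 of them without control library 1; the cause was not tested. The ranges of log2 fold change for those 18 were -0.57 to 0.10 in ACAT2, -0.62 to 0.019 in HMGCS1, -0.54 to 0.096 in FDPS, -0.32 to 0.082 in MVK, -0.45 to 0.069 in PMVK and -0.27 to 0.073 in MVD. They were -0.29 to 0.065 in FDFT1, -0.39 to 0.10 in SQLE, -0.40 to 0.071 in DHCR7, -0.21 to 0.13 in NSDHL, -0.24 to 0.36 in HSD17B7 and -0.12 to 0.013 in LBR. They were -0.21 to 0.088 in SREBF2, -0.12 to 0.41 in SCAP, -0.24 to 0.021 in NPC2, -0.18 to 0.029 in SOAT1, -0.10 to 0.077 in ABCA1 and -0.38 to 0.22 in SCARB1.

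Between pairs, scaling by library size alone called 1 member and 2.95% of all tested genes. DESeq2's likelihood ratio test called 6 members and 662 of 12826 genes (5.48% of those with an adjusted p). Without pair 1, 2 or 3, edgeR called 0, 6 and 4 members, against 0.497%, 5.79% and 4.09% of all tested genes. With 3 libraries a group and no pair in the model, SEs of treatment were 0.14 to 0.35 on the log2 scale. In that fit they were larger than most of the members' estimates. With the pair as a block, SEs ran from 0.093 (SOAT1) to 0.34 (NR1H3). For EBP the SE was 0.11 with the block and 0.22 without it.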
